A study of Mus musculus with 8 samples.

Results

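The pore-forming alpha1 subunits of voltage-gated calcium channels were examined in mouse hippocampus as 8 genes of the deposited count table, Cacna1a, Cacna1b, Cacna1c, Cacna1d, Cacna1e, Cacna1g, Cacna1h and Cacna1i, out of 46078 gene rows. Each symbol occurred once, and all 8 passed the filter on low counts. The tested mice (Cre) carried the Tg(Camk2a-cre)2Gsc transgene as Cre+/-, in which regulatory DNA of Camk2a drives Cre recombinase in forebrain excitatory neurons, and the other mice were wild type (WT). Both groups were C57BL/6J, 9 weeks old and gave 4 libraries each, and the labels name no floxed allele or drug treatment. The labels number the libraries but do not say whether each came from a different animal, so the p-values measure the spread between these libraries. The comparison asked what the transgene by itself does to RNA levels in this tissue.

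A voltage-gated calcium channel is built around a single alpha1 protein of 4 linked repeats that holds the voltage sensors, the gate and the calcium-selective pore. Cav1 channels carry L-type current and couple depolarisation of the cell body and dendrites to gene transcription. Cav2 channels carry P/Q-, N- and R-type current and supply much of the calcium that triggers transmitter release. Cav3 channels carry T-type current, open near the resting potential and promote burst firing. The auxiliary beta and alpha2delta subunits govern trafficking and gating of Cav1 and Cav2 channels.

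The letters that line the pore show how the T-type (Cav3) genes divide from the Cav1 and Cav2 genes. The stretches below encode the pore loop of the fourth repeat, 45 bases of each gene's longest annotated coding sequence in GENCODE M21 (GRCm38), printed 5′ to 3′ on the coding strand. The capitals mark the codon of the acidic residue that faces the pore and takes part in calcium selection.
Cacna1c: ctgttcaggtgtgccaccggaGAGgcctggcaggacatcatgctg
Cacna1d: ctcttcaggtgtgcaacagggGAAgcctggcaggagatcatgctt
Cacna1a: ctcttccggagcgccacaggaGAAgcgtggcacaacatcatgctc
Cacna1b: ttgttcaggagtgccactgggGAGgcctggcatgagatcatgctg
Cacna1e: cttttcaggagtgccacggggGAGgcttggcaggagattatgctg
Cacna1g: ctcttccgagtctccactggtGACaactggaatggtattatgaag
Cacna1h: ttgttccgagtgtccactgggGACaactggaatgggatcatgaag
Cacna1i: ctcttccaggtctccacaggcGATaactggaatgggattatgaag
The codon is a glutamate codon in the 5 Cav1 and Cav2 genes and an aspartate codon in the 3 Cav3 genes. A Cav1 or Cav2 stretch shared 24 to 32 of the 45 bases with a Cav3 stretch. Pairs of a Cav1 and a Cav2 gene shared 35 to 39, within the 33 to 39 of pairs from the same subfamily. The number of shared bases therefore does not separate Cav1 from Cav2. Single positions do differ, as the codon after agg or cgg is tgt in both Cav1 genes and agc or agt in the Cav2 genes. In Cacna1g the stretch lies in exon 32 at chr11:94416406-94416450 on the minus strand, in Cacna1h in exon 31 at chr17:25377762-25377806 on the minus strand, and in Cacna1i in exon 31 at chr15:80388476-80388520 on the plus strand. In the 5 Cav1 and Cav2 genes an intron divides it. It runs over exons 35 and 36 in Cacna1c, Cacna1d and Cacna1b, 34 and 35 in Cacna1a, and 36 and 37 in Cacna1e.

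These letters also bear on the counting. Over the whole coding sequence, the longest run of identical bases shared by any of the 28 pairs was 68 bases, between Cacna1g and Cacna1i, and the next was 50 bases, between Cacna1h and Cacna1i. Across subfamilies the longest run was 32 bases. Reads were paired and 150 bases long, longer than any of these runs. Only the longest coding sequence of each gene was compared, and untranslated parts were not. The genes lie on 8 different chromosomes (Cacna1e on 1, Cacna1b on 2, Cacna1c on 6, Cacna1a on 8, Cacna1g on 11, Cacna1d on 14, Cacna1i on 15 and Cacna1h on 17), and none is on the chromosome of Camk2a. Opposite-strand genes overlap annotated exons of Cacna1d over 589 bases (Chdh, 86 to 138 counts per library), Cacna1a over 435 bases (Gm16183, 0 to 2 counts) and Cacna1h over 158 bases (Tpsg1, 0 to 2 counts). The strand setting of the counting is not given in the sources used here, so reads in those bases cannot be assigned with certainty.

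Library totals ran from 21339996 to 27826871 counts, and the 8 genes together took 31063 to 38525 of them, 0.131% to 0.153% of a library. Syt2, for which the series is titled and which encodes a calcium sensor of vesicle release, stood at 176 ± 12.2 counts per 1000000 normalised counts (CPM) in Cre and 35.4 ± 4.10 CPM in WT (SD, n = 4 each). Camk2a stood at 4669 ± 149 CPM in Cre and 4652 ± 120 CPM in WT. WT replicate 1 stood apart in choroid plexus markers, whose sum was 995 CPM there, against 27.4 to 39.7 CPM in Cre and 28.5 to 36.5 CPM in the other WT libraries. Cre replicate 1 had the highest sums of microglia markers (439 CPM, with Cre replicates 2 to 4 at 327 to 335 CPM and WT at 296 to 325 CPM) and of astrocyte markers (5198 CPM, with Cre replicates 2 to 4 at 4506 to 4701 CPM and WT at 4182 to 4469 CPM). In the microglia and astrocyte sums every Cre library lay above every WT library, while the oligodendrocyte sums of Cre and WT overlapped. All 8 microglia, all 6 astrocyte and all 6 oligodendrocyte markers had fold changes above 0, and 0 of these markers passed the threshold. Their unadjusted p in edgeR's quasi-likelihood test ran from 0.0047 for C1qb to 0.39 for Aqp4.

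Of the 8 pore subunits, 0 passed the threshold of 0.05 in edgeR's quasi-likelihood test, with p-values adjusted by Benjamini-Hochberg over all 15859 genes tested, of which 5 (0.0315%) passed. None had an unadjusted p under 0.05 (3.5% of all genes tested did), 0 passed with DESeq2 or limma voom, and in none were the Cre and WT libraries apart without overlap (2.31% of all genes tested were). Of the 8, 2 had log2 fold changes (Cre over WT) above 0 and 6 below, from -0.11 to 0.10, with a median of -0.02, beside 49.8% below 0 and a median of 0.0004 over all genes tested. The adjusted p was 0.9995 for each. Over the 8 genes the 95% confidence intervals reached from -16.01% (Cacna1i) to 21.7% (Cacna1g) as a change in Cre, so larger changes lay outside the interval of each gene. A p that misses the threshold does not show that the levels are equal. The measure is RNA of whole hippocampus, in which fewer cells of a type and less RNA per cell cannot be told apart.

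**Figure D1:**
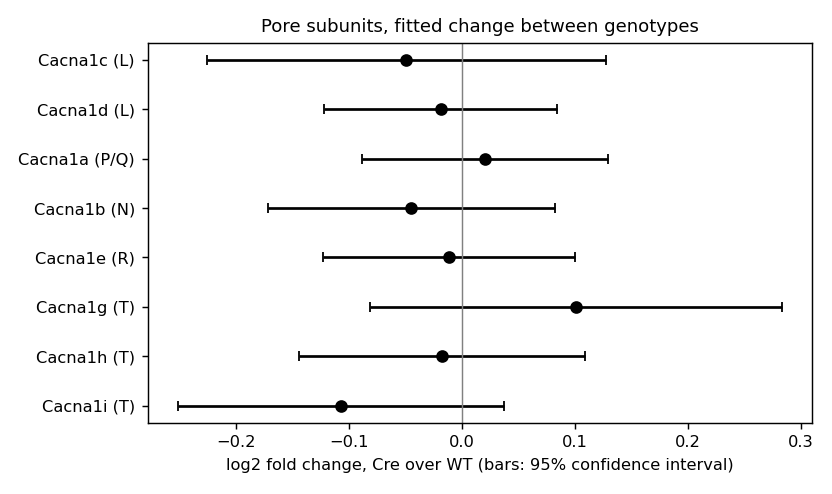
Fitted log2 fold change of each pore subunit gene, Cre over WT, with 95% confidence intervals from edgeR (4 libraries per group). The letters in brackets name the type of current. Every interval includes 0, and the points lie between -0.11 and 0.10.

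**Figure D2:**
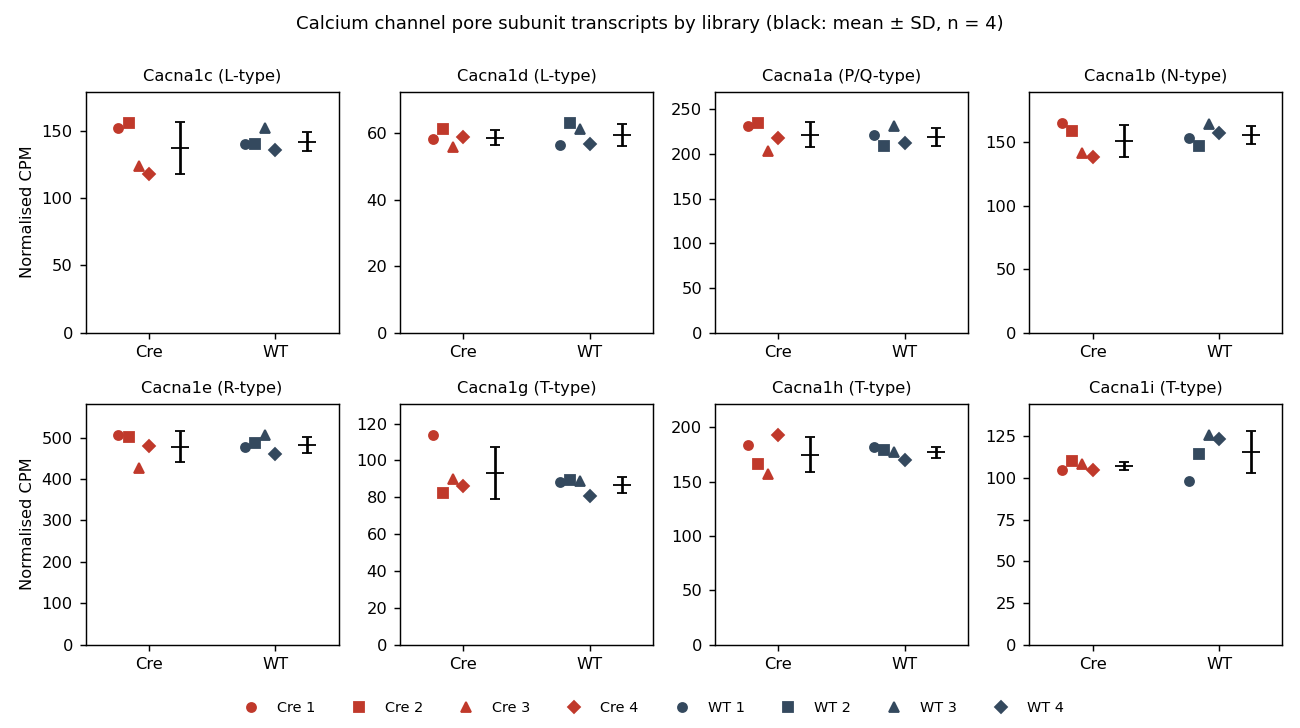
Normalised CPM of the 8 genes in each library, Cre left and WT right in each panel, with the mean ± SD in black (n = 4). The axes start at 0 and differ between panels. The groups overlap in every panel, and Cre replicate 1 is the highest point for Cacna1g.

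The L-type genes were Cacna1c, which encodes Cav1.2, the main L-type pore of forebrain neurons, and Cacna1d, which encodes Cav1.3, an L-type pore that opens at more negative voltages. Cacna1c had 152, 156, 124 and 118 CPM in Cre replicates 1 to 4, against 140, 140, 152 and 136 CPM in WT replicates 1 to 4. The Cre libraries held the highest value and the lowest pair, on both sides of WT. Its log2 fold change was -0.05 (SE 0.08). Without Cre replicate 4 it was 0.02. Cacna1d had 58.3, 61.3, 56.0 and 59.0 CPM in Cre, against 56.4, 63.1, 61.3 and 56.8 CPM in WT. The libraries of both genotypes were interleaved, and the log2 fold change was -0.02 (SE 0.05).

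The spread of Cacna1c was wider in Cre, with a coefficient of variation of 14.1% in Cre and 5.08% in WT. The summed level of the CA3 and CA2 pyramidal markers had the same order of libraries in Cre but not in WT, at 354, 377, 306 and 294 CPM in Cre replicates 1 to 4 and 357, 307, 354 and 357 CPM in WT replicates 1 to 4. All 6 genes of that list were tested, 1 was above 0 and 0 were called. Their part in the levels of Cacna1c was not tested.

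The Cav2 genes encode the presynaptic and R-type pores. Cacna1a, which encodes Cav2.1 of the P/Q-type channel, had 231, 234, 203 and 217 CPM in Cre, against 221, 209, 231 and 213 CPM in WT. The highest and the lowest library were both Cre. The log2 fold change was 0.02 (SE 0.05). Cacna1b, which encodes Cav2.2 of the N-type channel, had 165, 159, 141 and 139 CPM in Cre, against 153, 147, 164 and 158 CPM in WT. Again the Cre libraries lay on both sides of WT, with a log2 fold change of -0.04 (SE 0.06). Cacna1e encodes Cav2.3, the R-type pore found in dendrites and spines of hippocampal pyramidal neurons, and had 506, 500, 426 and 480 CPM in Cre, against 477, 486, 505 and 460 CPM in WT. Cre replicate 3 was the lowest of the 8 libraries. The log2 fold change of Cacna1e was -0.01 (SE 0.05).

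Among the T-type genes, Cacna1g encodes Cav3.1, a pore abundant in thalamic relay neurons. It had 114, 82.5, 89.9 and 86.1 CPM in Cre, against 88.5, 89.3, 89.0 and 80.4 CPM in WT. Cre replicate 1 was the highest library, and Cre replicate 3 lay just above the highest WT library. Cre replicates 2 and 4 lay within the range of WT. The fitted change was 0.10 on the log2 scale (SE 0.08, interval at 95% confidence -0.08 to 0.28) and became -0.01 without Cre replicate 1. That library was also the highest of the 8 in the summed markers of microglia, astrocytes, oligodendrocytes, oligodendrocyte precursors and endothelial cells. Its oligodendrocyte sum was 4687 CPM, with Cre replicates 2 to 4 at 3679 to 4415 CPM and WT at 3655 to 4089 CPM. Precursors stood at 157 CPM (143 to 155 CPM in WT) and endothelial cells at 143 CPM (110 to 137 CPM in WT). Its interneuron sum was the lowest of the 8, at 720 CPM (776 to 833 CPM in WT). The part of these cells in the Cacna1g level was not tested. The summed markers of thalamus and habenula were lowest in that library (66.1 CPM summed over 6 tested markers of 8, with Cre replicates 2 to 4 at 66.5 to 84.6 CPM and WT at 69.0 to 76.4 CPM). The markers did not move together, with Slc17a6 at 9.54 CPM in Cre replicate 1, the lowest of the 8 libraries, and Plekhg1 at 25.7 CPM and Tac2 at 2.22 CPM, each the highest. Gbx2 and Pou4f1, both defining markers of that list, did not pass the filter.

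Cacna1h, which encodes Cav3.2, a T-type pore of dentate granule cells among others, had 183, 166, 157 and 193 CPM in Cre, against 182, 179, 177 and 170 CPM in WT. The highest and lowest values were in Cre replicates 4 and 3, with a log2 fold change of -0.02 (SE 0.06). The 6 dentate granule markers summed to 388, 365, 318 and 458 CPM in Cre and 416, 423, 350 and 370 CPM in WT. In Cre the highest and lowest sums were in the same libraries as for Cacna1h, but not in WT. There Cacna1h was highest in replicate 1 and lowest in replicate 4, and the sum was highest in replicate 2 and lowest in replicate 3. None of these markers was called, 3 had fold changes above 0, and their part in the levels of Cacna1h was not tested.

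Cacna1i encodes Cav3.3, the slowest of the T-type pores, known from the thalamic reticular nucleus. It had 105, 110, 109 and 105 CPM in Cre, against 98.02, 115, 126 and 124 CPM in WT. All Cre libraries lay below WT replicates 2, 3 and 4, and above WT replicate 1, the library with the high choroid plexus markers. The fitted change was -0.11 on the log2 scale (SE 0.07, interval at 95% confidence -0.25 to 0.04, edgeR p = 0.132, adjusted p = 0.9995), and an exact permutation test on log2 CPM gave p = 0.286 (2-sided, n = 4 each, smallest possible 0.0286). Cacna1i had the smallest p of the 8 genes, and 10.7% of all genes tested had a smaller one. WT replicate 1 held the lowest Cacna1i value of the 8 libraries, so leaving it out was bound to widen the difference. Without WT replicate 1 the log2 fold change was -0.18 (SE 0.04, unadjusted p = 0.00166, adjusted p = 0.997 by the same edgeR test). This was the most extreme value with 1 library left out. Leaving out any other single library gave -0.12 to -0.0624, with unadjusted p from 0.14 to 0.376 in that test. The part of the choroid plexus RNA in the value without WT replicate 1 was not tested. Of the other 7 genes, exact permutation p ran from 0.543 for Cacna1b to 0.857 for Cacna1e (n = 4 each).

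Members were also compared in how each library deviated from the gene's mean. Cre replicate 3 was the lowest library for 4 genes (Cacna1d, Cacna1a, Cacna1e and Cacna1h) and Cre replicate 4 for Cacna1c and Cacna1b. The highest library was Cre replicate 1 for Cacna1b, Cacna1e and Cacna1g. The summed level of all 8 genes was 1515, 1469, 1306 and 1397 CPM in Cre and 1416, 1428, 1506 and 1396 CPM in WT. The most alike pair was Cacna1a and Cacna1e, with a root mean square difference of 0.0414 between their centred log2 CPM over 8 libraries, and the least alike was Cacna1g and Cacna1i, at 0.21. By the same measure over 11902 other genes, the nearest to Cacna1e were Mycbp2 (0.0162) and Vps13b (0.0209), to Cacna1a Slc7a6os (0.0184) and Susd4 (0.0199), and to Cacna1b Ap2a2 and Ptprn (0.0211 each). For Cacna1d they were Atrx (0.0243) and Ino80 (0.0245), and for Cacna1c Tmem178b (0.0326) and Ptprg (0.0441). For the T-type genes they were Gpr180 (0.0351) and Zfp407 (0.0383) for Cacna1h, Socs6 (0.0406) and Coro2a (0.0431) for Cacna1i, and Zmym6 (0.0495) and Man2b1 (0.0504) for Cacna1g. The points share libraries, depth and scaling factors, and these likenesses are a description.

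**Figure D3:**
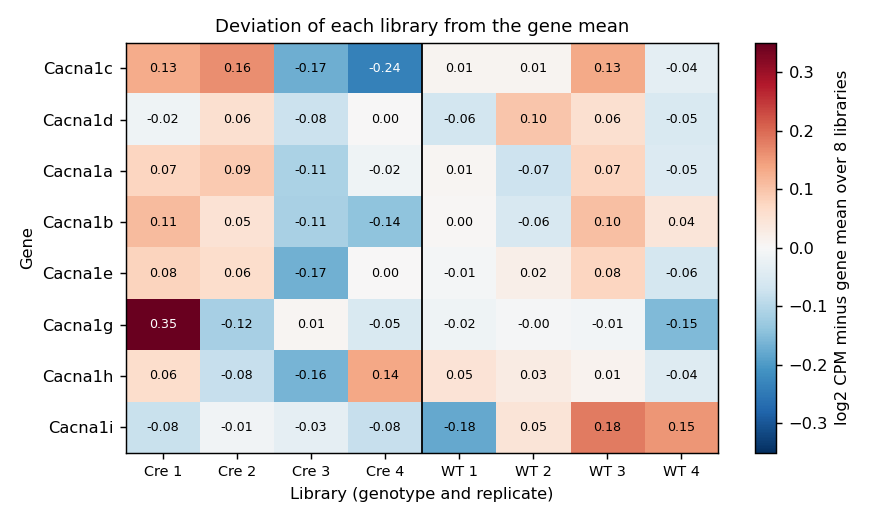
Deviation of log2 CPM from each gene's mean over the 8 libraries, with Cre libraries left of the black line and WT libraries right of it. Cre replicate 3 is negative for 7 of the 8 genes, and the largest single deviation is 0.35 for Cacna1g in Cre replicate 1.

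Levels of different genes were compared per kilobase of annotated exon (CPM per kb). The P/Q-type gene Cacna1a stood at 19.4 ± 1.25 CPM per kb in Cre and 19.1 ± 0.87 CPM per kb in WT, and the R-type gene Cacna1e at 18.95 ± 1.44 and 19.1 ± 0.75 CPM per kb (SD, n = 4 each). Cacna1h followed at 17.9 ± 1.67 CPM per kb in Cre and 18.1 ± 0.50 in WT, and Cacna1b at 15.2 ± 1.30 and 15.7 ± 0.73. The ranges over the 8 libraries overlapped between each of these neighbours. Below them, with no overlap, came Cacna1i (10.9 ± 0.25 CPM per kb in Cre, 11.7 ± 1.28 in WT) and Cacna1g (9.18 ± 1.39 and 8.56 ± 0.42), which overlapped each other. The L-type genes were lowest, Cacna1c at 6.48 ± 0.91 CPM per kb in Cre and 6.70 ± 0.34 in WT and Cacna1d at 4.65 ± 0.18 and 4.71 ± 0.26, each apart from its neighbours. Exon lengths ran from 9.76 kb for Cacna1h to 25.2 kb for Cacna1e, and the order depends on them. With the longest annotated transcript as length, Cacna1e stood above Cacna1a, and 6 of the 8 genes kept their place in the order. Cacna1c and Cacna1g overlapped by that length, while Cacna1a, Cacna1h and Cacna1b no longer did. The ranges of these last 3 over the 8 libraries were 25.66 to 29.57, 19.05 to 23.44 and 14.23 to 16.94 CPM per kb.

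**Figure D4:**
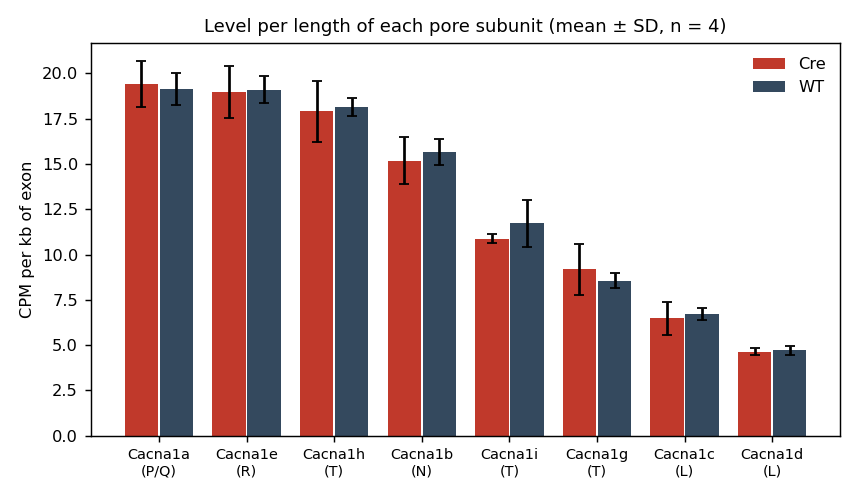
Level of each pore subunit per kilobase of annotated exon, mean ± SD over 4 libraries, in Cre and WT. The axis starts at 0. Cacna1a, Cacna1e, Cacna1h and Cacna1b form the upper part at 15.2 to 19.4 CPM per kb in Cre, and the L-type genes Cacna1c and Cacna1d the lowest at 6.48 and 4.65.

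The shares of the subfamilies in the summed level per kb are given as a description, with no test. The 3 Cav2 genes made up 52.15% ± 1.09 of the summed level per kb in Cre and 51.96% ± 0.73 in WT (SD, n = 4 each). The 3 Cav3 genes made up 37.0% ± 1.67 in Cre and 37.0% ± 0.61 in WT, and the 2 Cav1 genes 10.8% ± 0.62 in Cre and 11% ± 0.25 in WT. The P/Q- to N-type ratio (Cacna1a over Cacna1b, per kb) was 1.22 to 1.37 in Cre libraries and 1.18 to 1.25 in WT libraries. The ratio of Cacna1h to Cacna1g was 1.67 to 2.33 in Cre and 2.06 to 2.20 in WT. Each range in Cre overlapped that in WT. The sizes of these shares and ratios depend on the exon lengths used. With the longest annotated transcript as length, Cacna1a stood at 27.96 and Cacna1b at 15.49 CPM per kb in Cre. In WT they stood at 27.56 and 15.98 CPM per kb.

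The remaining alpha1 genes had few counts. Cacna1s, the L-type pore of skeletal muscle, had 9 to 26 counts per Cre library and 7 to 16 per WT library, and Cacna1f, the L-type pore of the retina, had 1 to 3 counts per library in both groups and was not tested. Nalcn, which encodes a related sodium leak channel, had 124 ± 7.20 CPM in Cre and 130 ± 3.29 CPM in WT (log2 fold change -0.06, SE 0.05).

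Of the genes that act with the pores, 0 of the 47 tested passed the threshold in either direction by edgeR's quasi-likelihood test, DESeq2 or limma voom. Of these, 0 had an unadjusted edgeR p under 0.05. Over all genes tested, 0.0315% passed by edgeR and 3.5% had an unadjusted p under 0.05. All 8 auxiliary beta and alpha2delta genes were tested, 2 above 0 and 6 below, with a median log2 fold change of -0.02. The one with the smallest p, Cacna2d3, an alpha2delta gene, had 104 ± 2.11 CPM in Cre and 109 ± 5.88 CPM in WT (log2 fold change -0.06, SE 0.04), and Cacnb4, a beta subunit gene, had 157 ± 14.4 and 162 ± 10.01 CPM (-0.04, SE 0.06). Of 11 tested presynaptic tethers and release partners, 2 lay above 0 and 9 below, with a median of -0.05. Rims1, which encodes an active zone protein that recruits Cav2 channels, had 222 ± 11.2 CPM in Cre and 232 ± 9.75 CPM in WT (log2 fold change -0.07, SE 0.04), and Syt1, the main calcium sensor of release, had 1427 ± 99.5 and 1496 ± 37.4 CPM (-0.07, SE 0.04).

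Calcium-activated potassium channels, which open in response to calcium entry, comprised 6 tested genes, 2 above 0 and 4 below, with a median of -0.02. Kcnma1, the pore gene of the BK channel, had the smallest p of the genes that act with the pores, at 104 ± 7.56 CPM in Cre and 113 ± 7.97 CPM in WT (log2 fold change -0.12, SE 0.06, unadjusted p = 0.0674, adjusted p = 0.9995 by edgeR). Kcnn2, an SK channel gene, had 69.1 ± 6.43 CPM in Cre and 66.8 ± 4.71 CPM in WT (0.05, SE 0.07). Of the 14 genes of calcium signalling to the nucleus, 7 lay above and 7 below 0, with a median of -0.004. Camk4, a nuclear calcium/calmodulin-dependent kinase gene, had 176 ± 10.03 CPM in Cre and 190 ± 13.7 CPM in WT (-0.11, SE 0.06), and Ppp3cb, a calcineurin catalytic subunit gene, had 406 ± 21.5 and 423 ± 10.99 CPM (-0.06, SE 0.04). Of 8 tested channel inhibitors and modulators, 4 lay above and 4 below 0 (median 0.01), led by the RGK family GTPase genes Gem (2.42 ± 0.78 CPM in Cre, 1.97 ± 0.01 in WT) and Rem1 (0.40 ± 0.09 and 0.45 ± 0.07 CPM). These medians stood beside 0.0004 over all genes tested.

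In the authors' deposited table, the log2 fold changes of the 8 pore subunits differed from those given here by at most 0.00093, and the lowest p of a member was 0.148, for Cacna1i, with no statement in the labels of whether it is adjusted.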

How the data were processed

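Poly(A) RNA was sequenced as paired reads from a directional kit, per the labels' protocols. The values of the count file are raw integer counts per gene symbol, as deposited, made by the authors with STAR 2.6.1d and featureCounts on GRCm38, per the submitters' processing notes, which also name edgeR 3.11. Neither the annotation release nor the strand setting is stated there. The authors' deposited comparison table gives a log2 fold change, a signed fold (ratio), a mean abundance in log2 and as a linear smoothed score, and a p-value.

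Counts were filtered with filterByExpr (minimum count 10, minimum total 15), which left 15859 of 46078 rows, and scaled by TMM (factors 0.988 to 1.01). Cre was compared with WT by edgeR 4.0.16 (R 4.3.3, quasi-likelihood, no covariate, 2-sided), adjusted over all genes tested, threshold 0.05. Alternatives used DESeq2 1.42.0, limma 3.58.1, other scalings and filters, a replicate block and each library left out. Log2 CPM used a prior count of 2. Gene lengths, positions and coding sequences came from GENCODE M21. Replicates of a group differed by more than counting noise (chi-square per degree of freedom 3.38 to 10).

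The members and lists were chosen with earlier results of these data known. Named genes are the 8 members, Syt2 and Camk2a, the 2 genes with the smallest p in each list of related genes, and the 2 genes nearest to each member by root mean square difference among genes with a mean log2 CPM of at least 2. Cacna1f, the genes overlapping members and some single marker genes were named outside that rule, after their values were seen. Those marker genes were C1qb, Aqp4, Slc17a6, Plekhg1, Tac2, Gbx2 and Pou4f1. The list of CA3 and CA2 markers held 1 gene under 2 symbols (Pvrl3, as in the count table, and Nectin3), counted once. The other marker lists, with sums in Cre against WT, were CA1 pyramidal (682 to 868 against 761 to 853 CPM), interneuron (720 to 843 against 776 to 833), oligodendrocyte (3679 to 4687 against 3655 to 4089), its precursor (146 to 157 against 143 to 155), endothelial (122 to 143 against 110 to 137), vascular muscle and pericyte (103 to 118 against 94.7 to 135), neocortex (138 to 173 against 143 to 169) and striatum (63.7 to 76.6 against 63.2 to 69.0), with 0 markers called.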

Additional observations from a re-analysis of the deposited data

Results flagged for a closer look

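Cacna1g in WT replicate 4 stood at 80.4 CPM, below the other 3 WT libraries at 88.5 to 89.3 CPM, a gap large for the range of 4 libraries. Of 16 sets of 4 libraries examined in this way, chance alone puts about 1 in 20 past that limit. Without WT replicate 4 the log2 fold change of Cacna1g was 0.07, and with it 0.10.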

How the results depend on the processing

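Under 18 alternative fits, 0 of the 8 pore subunits and 0 of the genes that act with them were called, and the lowest adjusted p of a member was 0.891. The count over all genes was 5 as reported, 4 to 6 with 1 library left out and 4 to 7 otherwise. Of 144 member values, 133 kept their direction and 11 changed sign, in 6 genes whose reported log2 fold changes lay between -0.05 and 0.10. With 1 library left out, log2 fold changes ran from -0.114 to 0.018 for Cacna1c, -0.0436 to 0.0124 for Cacna1d, -0.00736 to 0.0599 for Cacna1a, -0.0395 to 0.0404 for Cacna1e, -0.00946 to 0.154 for Cacna1g and -0.0678 to 0.0315 for Cacna1h. Cacna1b (-0.0904 to -0.00532) and Cacna1i (-0.179 to -0.0624) did not change sign. An alternative chosen after seeing the data left out Cre replicate 1 and WT replicate 1 together, with Cacna1g at -0.000126. Other scalings moved the median of all genes by at most 0.0072 on the log2 scale. With the replicate number as a block, 6 genes passed and no member did. Same-numbered libraries did not deviate together throughout (correlations 0.203, -0.114, 0.0199 and 0.0212). Cre replicate 1 correlated best with WT replicate 1, and Cre replicates 2, 3 and 4 each with another number. The labels state no pairing, and correlations of this size cannot decide whether same-numbered libraries share more than a number. Standard errors of the members ran from 0.05 to 0.08. They were 0.05 for Cacna1e at 10582 to 13112 counts and 0.05 for Cacna1d at 1297 to 1702 counts. The part of depth in these standard errors was not tested.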
